A study of Homo sapiens with 30 samples.

Results

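In liver metastases of the same mice, subclone 13 was compared with subclone 2, both descended from the human breast cancer cell line MDA-MB-231. The members are the 8 sequenced libraries that the labels give as sorted cells of either subclone from a liver metastasis, outside the retransplantation experiment, out of 30 libraries in the series. They make 6 samples, because the 3 libraries of subclone 13 from mouse 1, of which the last 2 are labelled technical replicates, were summed. The subclone 13 liver samples came from mice 1, 2 and 3, and the subclone 2 liver samples came from the same 3 mice, so each mouse gave 1 pair. The same 2 subclones were also sorted from the primary tumours and lung metastases of these mice, which makes 18 samples in all, and subclone 2 was sorted again from 3 other mice (4, 5 and 6) in a retransplantation experiment. All animals were NOD-SCID-IL2Rγc−/− (NSG) mice, and no drug treatment or age is given in the labels.

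MDA-MB-231 is an oestrogen receptor negative, mesenchymal-like line of triple-negative breast cancer that spreads to several organs when it is grafted into mice. NSG mice lack functional T, B and natural killer cells but keep myeloid cells, so the metastases grew without lymphocytes. The cells carried LeGO barcodes, which are heritable marks from lentiviral vectors that let descendants of 1 cell be recognised and sorted. The comparison asks how cells of a single line but of different clonal descent differ in expression while growing in the same organ. Each group stands for 1 subclone, so a difference describes these 2 clones and not clones in general, and bulk RNA cannot tell fewer expressing cells from less RNA per cell.

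The liver samples had 14.1 to 67.4 M counts in subclone 13 and 17.5 to 72.0 M counts in subclone 2 (M, metric mega, of counts assigned to genes). Both samples of mouse 1 held fewer genes: at an equal depth of 14.12 M counts, 18100, 23482 and 22290 genes were expected to have a count in subclone 13 of mice 1, 2 and 3, against 17333, 20281 and 21535 genes in subclone 2. Per the sample sheet of the authors, each mouse had its own sequencing run except for subclone 13 of mouse 1, whose 3 libraries came from runs 1, 2 and 3. The markers of the line were abundant in both groups. The 8 genes listed as present (VIM, CD44, KRT18 and others) summed to between 9043 and 15280 CPM (counts scaled to a common library total, with TMM) in subclone 13 and between 7027 and 13104 CPM in subclone 2. Of 9 hepatocyte markers with a value, 4 to 6 were at 0 in each liver sample of either subclone, among them FGB, FGG and HP in all 6. The host liver was of mouse, while the counts are of human genes, so these zeros do not show that host cells were absent.

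Genes separated the subclones in both directions. Among 17418 genes tested in edgeR (quasi-likelihood F test, Benjamini-Hochberg adjustment, the mouse as a term), 262 had an adjusted p under 0.05, which is 1.5% of genes tested. Of these, 170 were higher in subclone 13 (0.976%) and 92 were lower (0.528%), and 249 were protein coding. In 226 of the 262 genes all 3 samples of 1 subclone lay above all 3 of the other. Over all genes tested such a separation was found for 5.52% with subclone 13 above and 4.37% with subclone 13 below. All 262 had the same sign in the 3 mouse pairs, which a fit with the mouse as a term favours. The share over all genes tested was not determined for this. The median log2 fold change over all genes was 0.02. Without the mouse term 43 genes were called (35 higher, 8 lower), all of them among the 262. The count was 31 without mouse 3, 85 without mouse 2, 183 without mouse 1 and 386 without the subclone 2 liver sample of mouse 2 alone. Leaving out any other single liver sample gave 106 to 167.

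**Figure D1:**
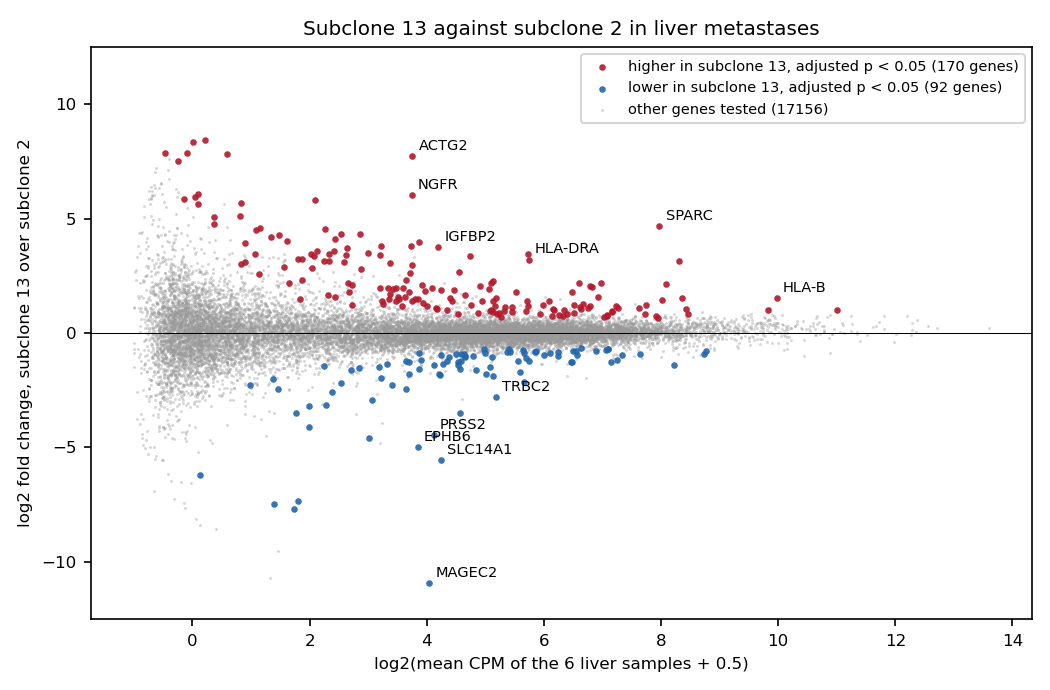
Log2 fold change of subclone 13 over subclone 2 in liver metastases (vertical axis) against log2 of the mean CPM over the 6 liver samples plus 0.5 (horizontal axis), 1 point per gene tested. Red points are the 170 genes called higher in subclone 13 and blue points the 92 called lower; SPARC stands apart among genes at high levels, and MAGEC2 has the largest negative value among the genes called.

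The 30 genes with the largest changes (15 each way among called genes with at least 5 CPM in the higher group) included SPARC, NGFR and ACTG2 on the higher side. On the lower side they included MAGEC2, SSX1 and 4 neighbours on chromosome 7. SPARC, a matricellular protein that binds collagen and modulates cell attachment, had 623, 407 and 415 CPM in subclone 13 of mice 1, 2 and 3, against 14, 32.5 and 11.3 CPM in subclone 2. The groups were far apart in every mouse, and the log2 fold change was 4.67 ± 0.40 (SE), with an edgeR adjusted p of 4.36e-06. The gene lies at chr5:151661096-151687165 on the minus strand (GRCh38, GENCODE v29). It kept its call under all alternatives tried.

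IGFBP2, which binds insulin-like growth factors, had 46.7, 24.5 and 27.0 CPM in subclone 13, against 0.513, 1.86 and 6.73 CPM in subclone 2. Its lowest subclone 13 sample lay well above its highest subclone 2 sample, and the log2 fold change was 3.74 ± 0.54 (adjusted p = 0.00143, edgeR). The secreted matrix protein TGFBI, named for its response to TGF-beta, had 649, 343 and 334 CPM in subclone 13, against 153, 71.0 and 75.7 CPM in subclone 2 (log2 fold change 2.16 ± 0.32). COL6A2, a chain of type VI collagen, had 1530, 758 and 1369 CPM in subclone 13, against 623, 499 and 655 CPM in subclone 2, and was the single member called among 21 collagen genes tested. Among genes chosen after their values were seen, SERPINF1, the secreted factor also known as PEDF, had 523, 523 and 615 CPM in subclone 13, against 20.5, 57.5 and 168 CPM in subclone 2. SPON2, a secreted matrix protein of the spondin family, had 73.0, 80.8 and 129 CPM in subclone 13, against 1.15, 9.99 and 20.8 CPM in subclone 2. For both genes the groups did not overlap, and in proportion the subclone 2 values varied more than those of subclone 13. IL11, a cytokine of the IL-6 family, had 11.7, 36.2 and 73.4 CPM in subclone 13, against 6.93, 2.11 and 7.6 CPM in subclone 2 (log2 fold change 2.66 ± 0.47).

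ACTG2 and MYH10, both cytoskeletal, were among the largest rises. ACTG2, the gamma actin of enteric smooth muscle, had 20.4, 27.6 and 29.3 CPM in subclone 13, against 0.192, 0 and 0.260 CPM in subclone 2. Its counts were 2108 in subclone 13 and 18 in subclone 2, pooled over the 3 samples of each. The ratio of the pooled levels was 169, with a 95% interval of 107 to 285 that covers counting error only (exact Clopper-Pearson). The fitted log2 fold change was 7.73 ± 0.68 with an edgeR adjusted p of 4.36e-06. MYH10, a heavy chain of non-muscle myosin II, had 6.61, 19.8 and 45.6 CPM in subclone 13, against 0.513, 1.82 and 2.09 CPM in subclone 2 (log2 fold change 3.79 ± 0.52).

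NGFR, the p75 neurotrophin receptor, had 29.4, 23.2 and 23.5 CPM in subclone 13, against 0.257, 0.748 and 0.0865 CPM in subclone 2 (log2 fold change 6.02 ± 0.65, edgeR adjusted p = 5.63e-05). Subclone 2 was near 0 in all 3 mice while subclone 13 varied little, and NGFR kept its call under all alternatives tried. SSTR2, a somatostatin receptor, had 4.74, 6.65 and 9.92 CPM in subclone 13, against 0, 0.574 and 1.38 CPM in subclone 2. GYPC, a membrane glycoprotein of red cells and other tissues, had 2.85, 11.3 and 10.3 CPM in subclone 13, against 0.834, 0.274 and 0.138 CPM in subclone 2. LAIR2, a secreted relative of the collagen receptor LAIR1, had 4.90, 14.3 and 19.1 CPM in subclone 13, against 0, 0.411 and 1.68 CPM in subclone 2. PCDHB2, a clustered protocadherin, had a log2 fold change of 5.80 ± 0.91, and its subclone 13 values ranged from 2.78 CPM in mouse 1 to 11.0 CPM in mouse 3. PCDHB2 and LAIR2 have close relatives, so the share of their reads that belongs to each relative is uncertain. LCTL, a relative of lactase, and GAS7 had log2 fold changes of 3.80 and 3.57.

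**Figure D2:**
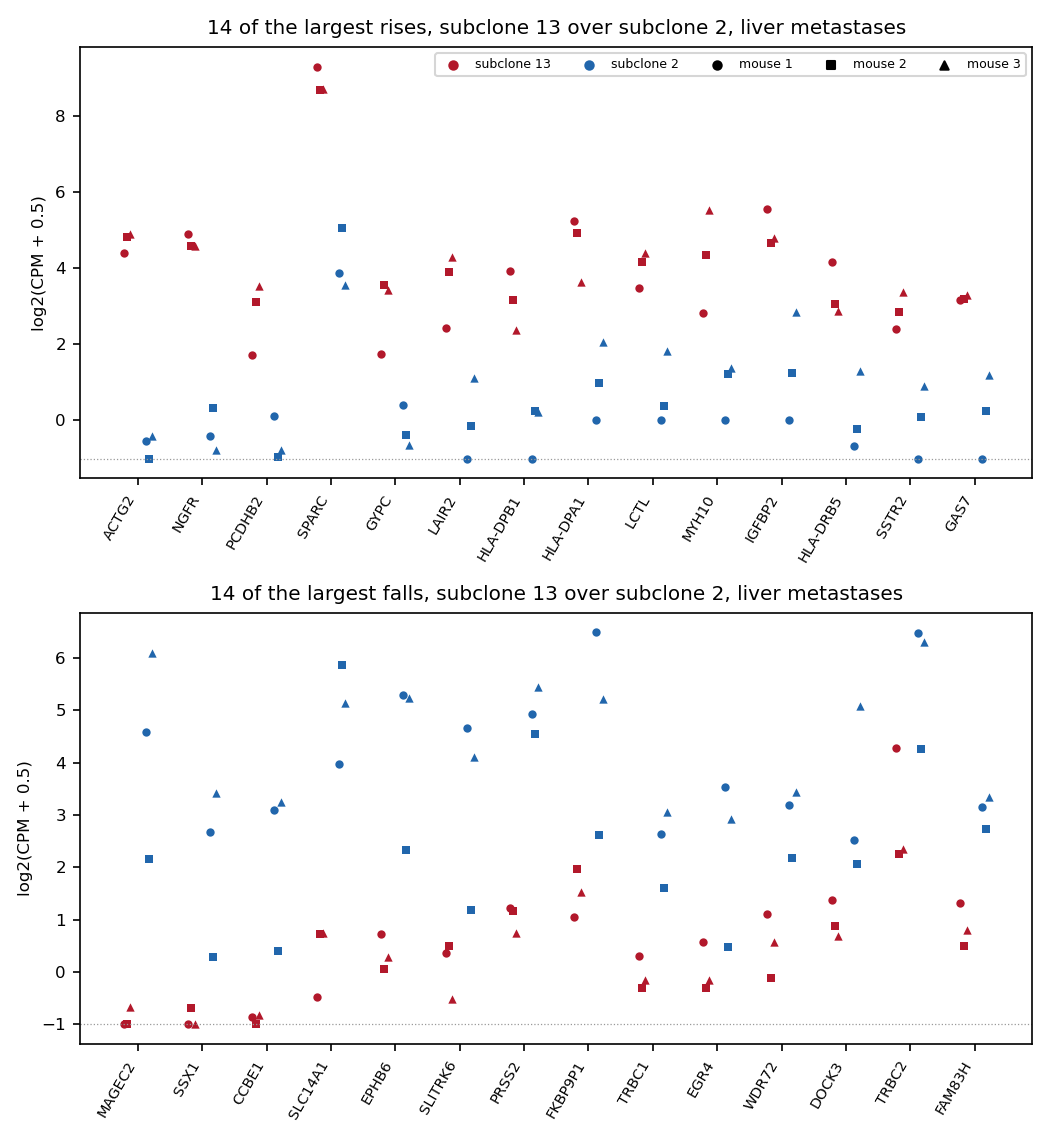
Log2(CPM + 0.5) of 14 of the genes with the largest rises (upper panel) and 14 of those with the largest falls (lower panel) in each liver sample, with subclone 13 in red left of subclone 2 in blue and the marker shape giving the mouse. The dotted line at -1 is the position of 0 CPM; the groups do not overlap for 26 of the 28 genes drawn, the exceptions being EGR4 and TRBC2.

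Of 11 tested genes of antigen presentation by MHC class II, 7 were higher in subclone 13. These molecules present peptides to CD4 T cells and are normally made by professional antigen presenting cells; other cells make them when the coactivator CIITA is induced, for instance by interferon-gamma. Of 12 members of the list, 11 were tested, and 7 of them were called higher and none lower, against a background of 0.976% of all genes called higher. The median log2 fold change of the 11 was 3.18, against 0.02 over all genes tested, and all 11 had a positive value. In 9 of the 11, all 3 subclone 13 samples lay above all 3 subclone 2 samples, as in 5.52% of all genes.

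HLA-DRA, the alpha chain of HLA-DR, had 128, 99.7 and 56.3 CPM in subclone 13, against 3.78, 9.41 and 20.4 CPM in subclone 2. The groups did not overlap, and the log2 fold change was 3.21 ± 0.56 (adjusted p = 0.00554, edgeR). HLA-DPA1 and HLA-DPB1, the 2 chains of HLA-DP, had log2 fold changes of 3.96 ± 0.78 and 4.11 ± 0.92. HLA-DPA1 was at 36.9, 29.8 and 12.0 CPM in subclone 13, against 0.513, 1.48 and 3.67 CPM in subclone 2. HLA-DRB1 and HLA-DRB5, beta chains of HLA-DR, had log2 fold changes of 3.35 and 3.72. They are near-identical and vary between people, so the split of reads between them is uncertain. HLA-DMA, which loads peptides, had 36.0, 27.2 and 26.6 CPM in subclone 13, against 11.5, 5.74 and 16.8 CPM in subclone 2. CD74, the invariant chain that escorts class II molecules, had 611, 278 and 241 CPM in subclone 13, against 146, 71.0 and 201 CPM in subclone 2. For both genes the lowest subclone 13 sample was above the highest subclone 2 sample, and for CD74 the margin was narrow.

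CIITA, the coactivator of class II genes, did not pass the test in liver. It had 10.3, 8.23 and 12.2 CPM in subclone 13, against 1.67, 7.18 and 8.62 CPM in subclone 2 (log2 fold change 1.0, edgeR adjusted p = 0.259). The values of mouse 2 lay close together and the groups overlapped. CIITA did pass in the primary tumours (2.5) and in lung metastases (1.74). The class II calls depended on the mouse term: none of the 7 was called without it, with adjusted p of 0.0517 for HLA-DRA and higher for the others. None was called without mouse 2, 1 without the subclone 13 sample of mouse 2, 2 without the subclone 2 sample of mouse 1, and 3 without mouse 1 or its subclone 13 sample.

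**Figure D3:**
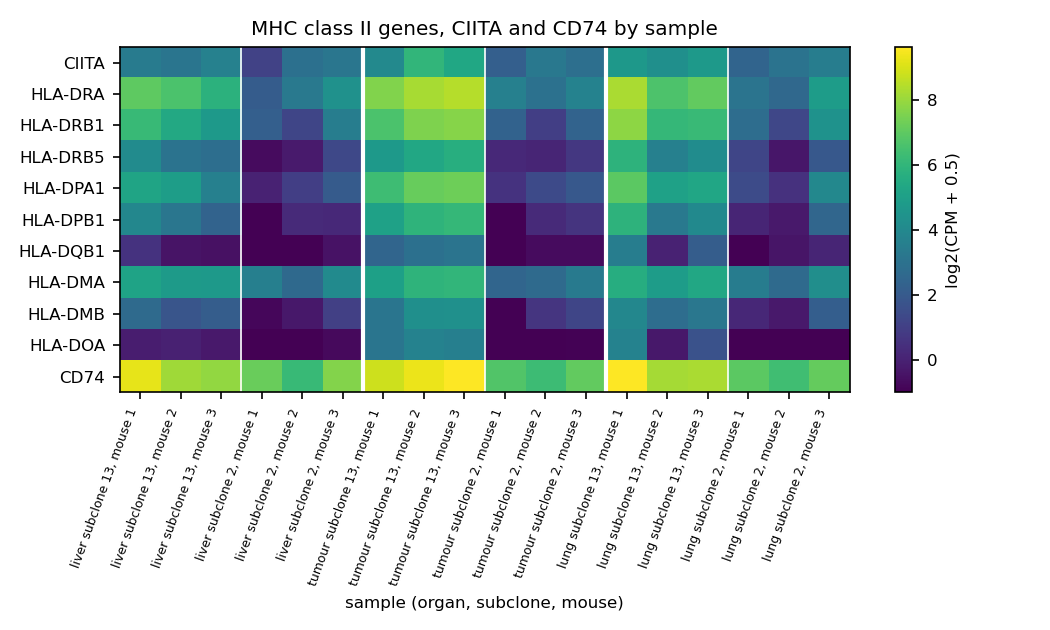
Log2(CPM + 0.5) of the 11 tested MHC class II list members (rows) in the 18 samples (columns), ordered as liver, primary tumour and lung, with subclone 13 left of subclone 2 in each organ. HLA-DRA, HLA-DRB1, HLA-DPA1 and CD74 are brighter in the subclone 13 columns of every organ, and the liver columns of subclone 13 are darker than its tumour columns for CIITA in all 3 mice.

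The promoters of 4 of these genes are shown because the genes moved together and class II promoters are known to share an X box and a Y box upstream of the start. Each line gives bases -130 to -31 relative to the gene start, 5′ to 3′ on the strand of the gene (RefSeq, GRCh38.p14), with matches to 2 motifs in capitals: AGCAAC, the core of the X box, and ATTGG, the inverted CCAAT of the Y box, both searched on both strands.
HLA-DRB1 (chr6:32589879-32589978, minus strand): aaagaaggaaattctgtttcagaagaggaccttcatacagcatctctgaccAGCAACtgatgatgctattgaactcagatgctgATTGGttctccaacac
HLA-DRB5 (chr6:32530318-32530417, minus strand): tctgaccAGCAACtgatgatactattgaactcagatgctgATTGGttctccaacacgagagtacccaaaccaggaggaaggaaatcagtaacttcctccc
HLA-DPB1 (chr6:33075860-33075959, plus strand): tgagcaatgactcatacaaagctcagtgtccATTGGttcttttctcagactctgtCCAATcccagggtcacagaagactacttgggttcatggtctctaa
HLA-DMA (chr6:32953128-32953227, minus strand): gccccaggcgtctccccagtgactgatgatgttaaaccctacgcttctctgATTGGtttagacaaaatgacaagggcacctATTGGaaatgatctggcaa
AGCAAC was found within 250 bases upstream of a start in 5 of the 10 list members with an entry in the table, and in 10.3% of all 35116 promoters. The match of HLA-DMA lies at -216, outside the bases printed for it. ATTGG was found in 9 of the 10 and in 32.0% of all promoters. The list counts are per gene and the percentages per promoter. Among called genes not printed, CD74 had ATTGG without AGCAAC. HLA-DPA1 had neither motif for the start next to chr6:33080779-33080878, and AGCAAC without ATTGG for the start next to chr6:33073680-33073779. In the printed windows HLA-DRB1 and HLA-DRB5 hold both, with AGCAAC upstream of ATTGG and a long shared stretch around them. A match describes these letters only, and the clones may differ from the reference there.

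HLA-B, a classical MHC class I gene, was at 1976, 1372 and 1022 CPM in subclone 13, against 452, 355 and 861 CPM in subclone 2 (log2 fold change 1.51 ± 0.31). Of 15 class I and peptide loading genes tested, 2 were called higher, HLA-B among them, and none lower (0.976% of all genes tested were called higher). B2M, the shared light chain, had a log2 fold change of 0.77 with an edgeR adjusted p of 0.092. Of 31 interferon response genes tested, 2 were called higher (MX2 and IFI27) and none lower, beside the same 0.976%, and the list's median was -0.05. None of 28 TNF and NF-kB response genes was called in edgeR, where 4 had an unadjusted p under 0.05.

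MAGEC2 and SSX1, cancer-testis antigens that are silent in most adult tissues and expressed in germ cells and tumours, were lower in subclone 13. MAGEC2, an X-linked member of the MAGE family, had 0, 0 and 0.131 CPM in subclone 13, against 23.7, 3.98 and 67.9 CPM in subclone 2. That is 2 counts in subclone 13 and 4611 in subclone 2, a ratio of pooled levels of 1599 in favour of subclone 2, with a counting interval of 442 to 13206. SSX1, a second X-linked antigen with close relatives, had 0, 0.121 and 0 CPM in subclone 13, against 5.90, 0.711 and 10.2 CPM in subclone 2. Its ratio of pooled levels was 256 in favour of subclone 2, with an interval of 70.5 to 2114. For both genes the subclone 2 sample of mouse 2 was the lowest of its group by several fold. In primary tumours MAGEC2 did not pass (log2 fold change -1.45, edgeR adjusted p = 0.765). It had 5.89, 0.0512 and 0.358 CPM in subclone 13 there, against 5.57, 1.15 and 3.71 CPM in subclone 2. In lung metastases MAGEC2 passed (-7.93, edgeR adjusted p = 0.0121). CCBE1, a secreted factor of lymphatic vessel growth, had 4 counts in subclone 13 and 710 in subclone 2, a ratio of 123 (47.9 to 453).

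A stretch of chromosome 7 held 4 of the 15 largest falls. PRSS2, a trypsinogen gene embedded in the T cell receptor beta locus (chr7:142760398-142774564), had 1.83, 1.75 and 1.18 CPM in subclone 13, against 30.1, 23 and 43.2 CPM in subclone 2. The groups lay far apart in all mice, the log2 fold change was -4.47 ± 0.58 (adjusted p = 0.000568, edgeR), and the call held under all alternatives tried. The next genes along the chromosome, TRBC1 (chr7:142791694-142793368) and TRBC2 (chr7:142801041-142802748), are the constant segments of that locus. TRBC2 had 18.9, 4.29 and 4.6 CPM in subclone 13, against 89.3, 18.6 and 78.5 CPM in subclone 2. The subclone 13 sample of mouse 1 slightly exceeded the subclone 2 sample of mouse 2, so the groups overlapped, yet each pair had the same sign. TRBC1 had a log2 fold change of -3.48, and reads of these near-identical segments cannot be assigned to one with certainty. EPHB6, a kinase-inactive Eph receptor (chr7:142855061-142871094), had 1.15, 0.544 and 0.722 CPM in subclone 13, against 39.0, 4.53 and 37.4 CPM in subclone 2. TRBV30, between TRBC2 and EPHB6, did not pass (log2 fold change -1.89, edgeR adjusted p = 0.423), though its 3 subclone 13 samples lay below the 3 of subclone 2. TRPV6, the next gene tested after EPHB6, had 0 CPM in all 3 subclone 13 samples, against 1.15, 0 and 1.33 CPM in subclone 2, and did not pass (edgeR adjusted p = 0.155). GSTK1, the gene tested after it, had a log2 fold change of 0.09 (edgeR adjusted p = 0.898), and the median of the 67 genes tested between 140 and 150 Mb was 0.09. The libraries do not keep the strand.

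SLC14A1, a urea transporter, had 0.220, 1.15 and 1.18 CPM in subclone 13, against 15.2, 57.8 and 34.7 CPM in subclone 2 (log2 fold change -5.56 ± 0.77). It was the single gene of these 15 in which the subclone 2 sample of mouse 2 was not the lowest of its group. SLITRK6, a neuronal membrane protein, had 0.779, 0.907 and 0.197 CPM in subclone 13, against 24.8, 1.78 and 16.8 CPM in subclone 2. TERT, the catalytic subunit of telomerase, had 10.8, 22.1 and 17.5 CPM in subclone 13, against 104, 30.2 and 117 CPM in subclone 2 (log2 fold change -2.12 ± 0.45). It was the single member called among 11 telomerase and telomere binding genes tested. TERT was known as a subclone 2 marker from earlier results of these data, so this count does not test the list. Other falls were FKBP9P1 (a pseudogene, -3.49), EGR4 (an early growth response factor, -3.21), WDR72 (-3.16), DOCK3 (-2.93) and FAM83H (-2.56). EGR4 and FAM83H lost their call whenever a mouse was left out.

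Of 25 integrin and laminin genes tested, 2 were lower and none higher (0.528% of all genes tested were called lower). LAMA3, an alpha chain of the laminins that anchor epithelia to the basement membrane, had 48.1, 78.7 and 122 CPM in subclone 13, against 102, 218 and 279 CPM in subclone 2. The log2 fold change was -1.25 ± 0.23, and the groups overlapped, since both subclones were lowest in mouse 1 and highest in mouse 3. Of 22 genes of the TGF-beta list, BAMBI, a decoy receptor, was higher (1.02 ± 0.24) and SMAD7, an inhibitory SMAD, was lower (-1.61 ± 0.33). SMAD7 had 9.52, 8.35 and 19 CPM in subclone 13, against 46.8, 10.2 and 75.7 CPM in subclone 2, so the pair of mouse 2 differed little. The insulin receptor gene INSR was lower (-0.92 ± 0.21), as was the immediate early gene IER2 (-1.17 ± 0.27).

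CA12 and PFKFB3 were higher in the glycolysis and hypoxia list. CA12, a membrane carbonic anhydrase, had 147, 205 and 268 CPM in subclone 13, against 36.4, 46.6 and 48.2 CPM in subclone 2 (log2 fold change 2.20 ± 0.23, edgeR adjusted p = 5.63e-05). PFKFB3, which makes the activator of phosphofructokinase, had 322, 375 and 717 CPM in subclone 13, against 175, 266 and 213 CPM in subclone 2 (log2 fold change 1.04 ± 0.22). These were the 2 of 32 members called, beside 0.976% of all genes called higher, none was lower, and 27 of the 32 had positive values with a median of 0.53, against 52.0% positive and a median of 0.02 over all genes. Of 19 genes known from MDA-MB-231 metastasis, SPARC, IL11, L1CAM and FSCN1 were higher and none was lower (4 of 19, beside 0.976% of all genes). SPARC was known as a subclone 13 marker from earlier results of these data. L1CAM, an adhesion molecule, had 27.0, 11.3 and 10.1 CPM in subclone 13, against 2.05, 5.66 and 4.92 CPM in subclone 2, and FSCN1, an actin bundler, had a log2 fold change of 0.95 ± 0.23. In the chemokine and interleukin list CX3CL1 was higher (1.86) and IL12A lower (-2.27), besides IL11.

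Single members were called in further lists; these counts and those of the collagen, telomerase, TGF-beta and chemokine lists stand beside 0.976% of all genes called higher and 0.528% called lower. KRT81, a type II keratin, had 210, 165 and 147 CPM in subclone 13, against 13.9, 65.6 and 59.7 CPM in subclone 2 (log2 fold change 2.05 ± 0.43), and was the 1 of 24 epithelial-mesenchymal genes called. Its reads are hard to tell from those of its near-identical neighbour KRT86. PHGDH, the entry enzyme of serine synthesis, had 3.46, 2.66 and 1.18 CPM in subclone 13, against 0, 0.0125 and 0.208 CPM in subclone 2, a low level in both. GFAP, an intermediate filament of astrocytes, had 14.6, 16 and 18.3 CPM in subclone 13, against 4.36, 7.71 and 5.47 CPM in subclone 2, and with NGFR was called higher among 12 neural genes tested. NGFR was known as a subclone 13 marker from earlier results of these data. GSTM3, a glutathione transferase, was higher by 1.17 ± 0.21 among 20 NRF2 targets, and AMOTL1, an angiomotin of the Hippo pathway, by 0.79 among 19 genes.

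Of 33 lists, 11 had no member called in edgeR (36 of their 256 genes tested had an unadjusted p under 0.05). They covered mitosis, S phase, cholesterol synthesis, fatty acid metabolism, nuclear oxidative phosphorylation, mitochondrially encoded genes, WNT and Notch, semaphorins and plexins, matrix proteases, drug efflux, and the TNF and NF-kB response. The median was 0.17 over mitosis genes, with 22 of 25 positive, and -0.01 over S phase genes, with 13 of 28 positive, against 52.0% positive over all genes. Mitochondrial genes took 4.45, 5.24 and 4.0% of counts in subclone 13 of mice 1, 2 and 3, against 5.77, 4.35 and 3.35% in subclone 2. The means were 4.56 ± 0.62% in subclone 13 and 4.49 ± 1.22% in subclone 2 (SD, n = 3 each), and the sign of the difference varied between mice (exact paired permutation test, 2-sided p = 1, smallest possible 0.25).

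The summed hepatocyte markers were higher in subclone 13, at 172 to 221 CPM, against 30.6 to 60.1 CPM in subclone 2. SERPINA1, alpha-1 antitrypsin, made up 166, 166 and 206 CPM of this in subclone 13, and 55.2, 24.9 and 55.8 CPM in subclone 2 (log2 fold change 1.99 ± 0.30, adjusted p = 0.0019 in edgeR). ALB, the most abundant hepatocyte transcript, was at or near 0 in all 6 samples. Macrophage markers summed to 11.8 to 24.4 CPM in subclone 13 and 8.24 to 20.4 CPM in subclone 2, with C1QC and CLEC4F at 0 in all 6 samples (9 of 12 markers had a value). Stellate cell and fibroblast markers summed to 38.7 to 91.7 CPM in subclone 13 and 23.7 to 44.4 CPM in subclone 2, and endothelial markers to 22.7 to 48.7 CPM in subclone 13 and 28.9 to 35.1 CPM in subclone 2. The host tissue was of mouse and the counts are of human genes, so these sums do not measure how much host tissue was present. The part of these markers in the results above was not tested.

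The subclone difference in the liver was set beside that in the other organs, where other samples of the same mice give each value. In primary tumours 88 genes were called (0.505%), 0.344% of genes tested higher and 0.161% lower. In lung metastases 269 were called (1.54%), 0.758% higher and 0.787% lower. Of the 262 liver genes, 36 were also higher and 9 also lower in the tumours, which is 45 of 262 and 45 of 88, and none was called in the opposite direction. With lung metastases 59 higher and 29 lower genes were shared and none was opposite. In all 3 organs 28 genes were called higher and 5 lower, and 162 were called in liver alone, which is no test that they differ there. All 30 genes with the largest changes had fitted values of the same sign in both other organs. They were chosen for large liver differences, and the share over all genes tested was not determined. The fitted sign did not hold in every pair. In tumours of mouse 1, WDR72 had 14.6 CPM in subclone 13, against 3.03 CPM in subclone 2 (fitted value in tumours -0.57 ± 0.71). EGR4 had 6.34 CPM in subclone 13 there, against 2.97 CPM in subclone 2 (-0.36 ± 0.63). Of the 15 rises, 6 were called in tumours and 11 in lung metastases, and of the 15 falls, 3 and 11. SPARC was even across organs, with log2 fold changes of 4.67 in liver, 4.46 in tumours and 4.76 in lung. The class II list had a median of 3.18 in liver, against 5.77 in tumours and 3.89 in lung.

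**Figure D4:**
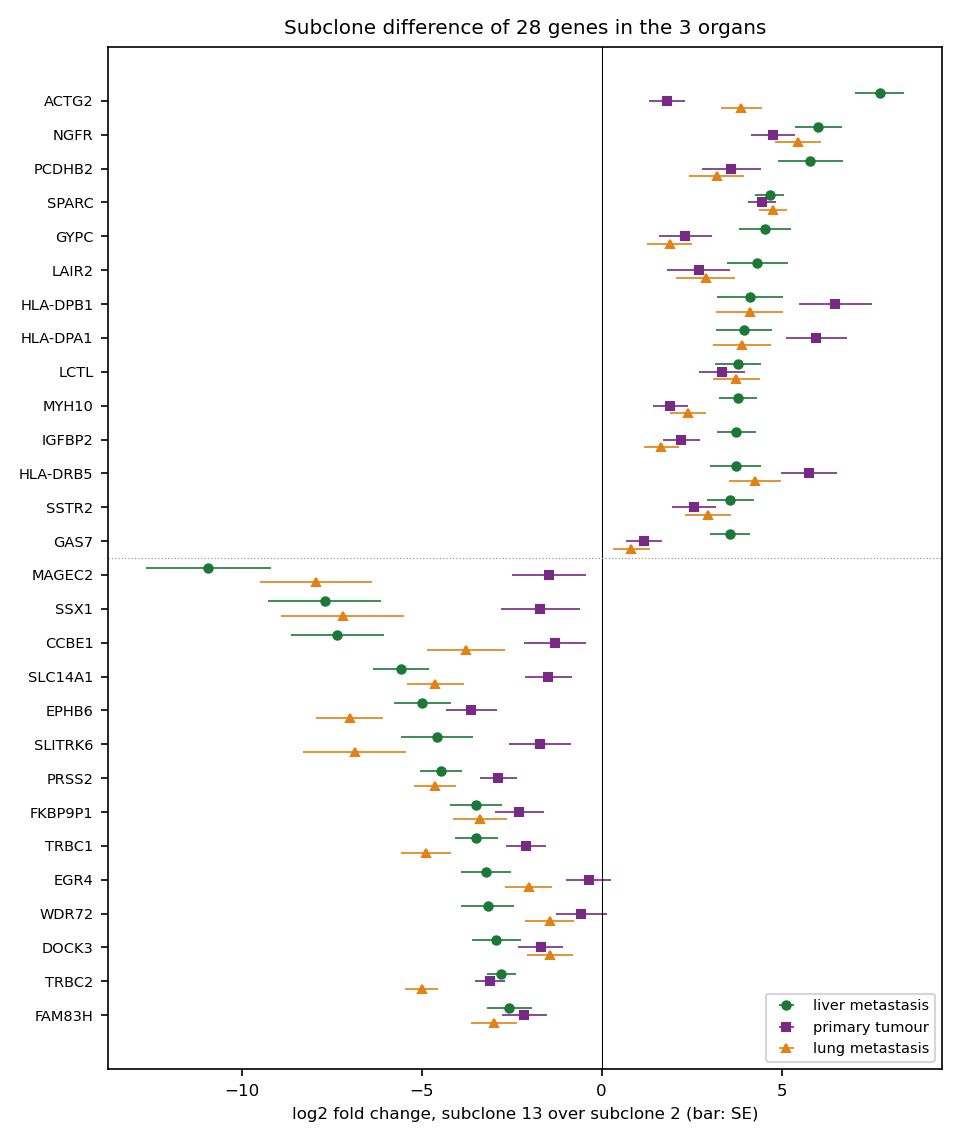
Log2 fold change of subclone 13 over subclone 2 (points) with its SE (bars) for 28 of the 30 genes with the largest changes in liver, in liver metastases (green circles), primary tumours (purple squares) and lung metastases (orange triangles). The genes were chosen on the liver values. All 28 drawn keep the sign of the fitted value in the other organs, and MAGEC2, CCBE1, SSX1 and ACTG2 show the widest gaps between liver and tumour.

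A direct test of the difference between organs found 1 gene. The subclone difference of ACTG2 was larger in liver than in tumours by 5.90 ± 0.80 on the log2 scale (edgeR adjusted p = 0.00861), 0.00574% of genes tested. In tumours ACTG2 had 15.3, 7.68 and 7.84 CPM in subclone 13, against 3.22, 2.23 and 3.32 CPM in subclone 2. So subclone 13 was higher in liver than in tumours in all 3 mice, and subclone 2 was lower. In lung metastases it had 15.2, 12.8 and 16.2 CPM in subclone 13, against 1.45, 0.354 and 1.72 CPM in subclone 2. The ACTG2 difference did not pass without the mouse term (adjusted p = 0.331, edgeR), with a term for each mouse and organ (0.0753), or without mouse 2 (0.0539), mouse 3 (0.139) or the subclone 13 liver sample of mouse 2 (0.0533). Between liver and lung no gene passed in edgeR (0 of 17418; 783 at an unadjusted p under 0.05, smallest adjusted p 0.451), and DESeq2 called 21. For liver against tumour DESeq2 called 25 genes, and the unadjusted edgeR p was under 0.05 for 635.

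The genes lower in subclone 13 were unevenly spread over the chromosomes. The chromosomes described here, the border at 20 Mb on chromosome 19 and the genes named as examples on them were chosen after their values were seen. Chromosome 18 and the first 20 Mb of chromosome 19 held 39 of the 92 genes called lower (42.4%), while they hold 4.26% of genes tested. On chromosome 18, 12 of 240 genes were called lower (5%) and none higher, 80.4% had a negative log2 fold change, and the median was -0.44. The called genes include SMAD7, LAMA3, SLC14A1, CCBE1 and NPC1, the cholesterol transporter of late endosomes. The median by mouse pair was -0.55 in mouse 1, -0.03 in mouse 2 and -0.52 in mouse 3, so the pair of mouse 2 did not share the shift.

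Median levels by sample show where the chromosome 18 shift lies. They are medians over 148 genes with a mean of at least 5 CPM, relative to each gene's mean over the 18 samples. They were -0.29, -0.12 and -0.20 on the log2 scale in subclone 13 of mice 1, 2 and 3, against 0.47, 0.00 and 0.39 in subclone 2. Among subclone 2 samples of mouse 1, the lung metastasis (0.39) and the primary tumour (0.35) were also high. Those of mice 2 and 3 were between -0.15 and 0.04 in both organs, and the liver sample of mouse 3 stood above them.

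Chromosome 19 was split by position. In its first 20 Mb 27 of 501 genes were called lower and 1 higher, 87.2% had a negative value and the median was -0.47, with -0.37, -0.50 and -0.47 in the pairs of mice 1, 2 and 3. In the remaining part 6 of 705 genes were higher and none lower, and the median was 0.01. The border is not sharp: the median was -0.32 between 20 and 30 Mb (75.5% negative) and -0.25 between 30 and 40 Mb (65.4% negative), and 0.11 between 40 and 50 Mb. Genes called lower in the first part include INSR, STK11, the kinase upstream of AMPK, TICAM1, an adaptor of Toll-like receptors, and TNFSF9, the ligand of 4-1BB. Their differences were small beside those of the genes that changed most, for example -0.80 ± 0.19 for STK11. The same part had medians of -0.29 in primary tumours and -0.50 in lung metastases.

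Chromosome 14 leaned the other way. Of 544 genes, 14 were called higher (2.57%) and none lower, 80.3% had a positive value, and the median was 0.36, with 0.29, 0.39 and 0.22 in the 3 pairs. IFI27, SERPINA1, ACTN1, an actin crosslinker, and PYGL, the liver form of glycogen phosphorylase, are among them. The chromosome's median was 0.18 in tumours and 0.10 in lung. Of 287 windows of 10 Mb with at least 15 genes tested, 5 had a median of at least 0.5 in size and the same sign in all pairs. They were 90 to 100 Mb on chromosome 14 (0.52) and 4 windows between 30 and 80 Mb on chromosome 18 (-0.71 to -0.50). In these 4 windows the pair of mouse 2 had medians of -0.11, -0.011, -0.018 and -0.0061, near 0, so the shared sign does not show a shift in that pair. Among the liver samples, shifts of a single sample were seen as well. Chromosomes 13 and X had medians of -0.45 and -0.43 in the subclone 2 sample of mouse 2. They had medians between -0.05 and 0.18 in the other 2 subclone 2 liver samples. For X, the subclone 13 lung sample of mouse 2 was low too, at -0.40. DNA copy number was not analysed here.

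**Figure D5:**
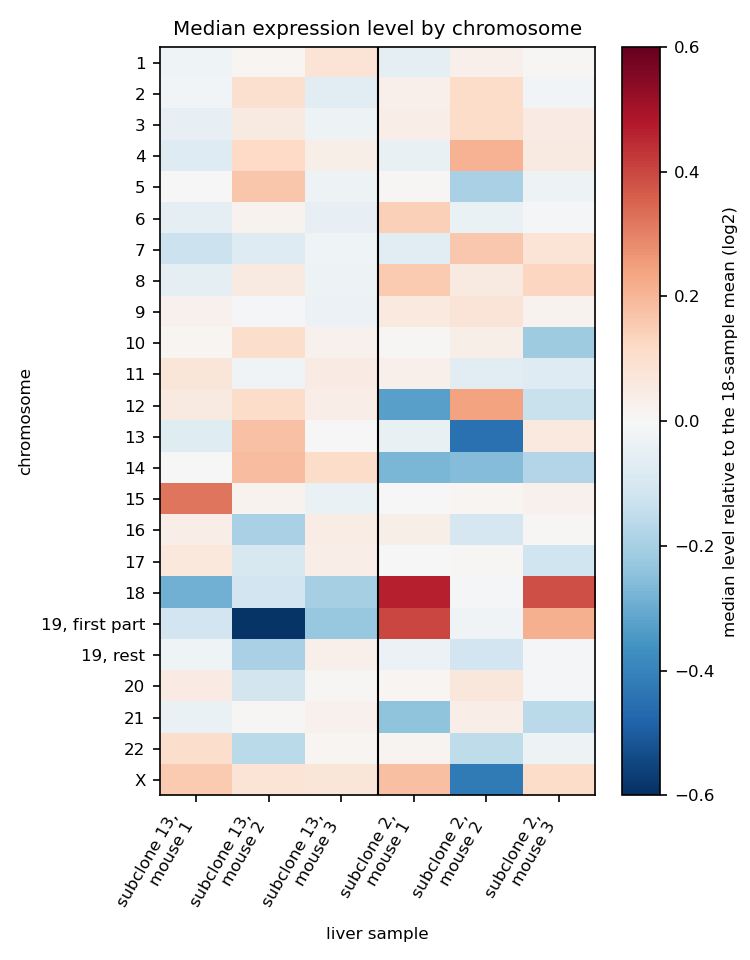
Median level of the genes of each chromosome (rows, chromosome 19 in 2 parts) in each liver sample (columns, subclone 13 left of subclone 2), as log2 relative to each gene's mean over the 18 samples and to the sample's own median. Chromosome 18 is high in subclone 2 of mice 1 and 3 (0.47 and 0.39) but not of mouse 2 (0.00), and the first part of chromosome 19 is lowest in subclone 13 of mouse 2 (-0.59).

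The subclone 2 liver samples differed among themselves. Of the 92 genes called lower in subclone 13, the sample of mouse 2 was the lowest of the 3 in 56, that of mouse 1 in 22 and that of mouse 3 in 14. Over all genes tested with 1 lowest sample, the sample of mouse 2 was the lowest in 33.6%, that of mouse 1 in 43.8% and that of mouse 3 in 22.6%. Of the 170 genes called higher, the sample of mouse 2 was the highest of the 3 in 50, that of mouse 1 in 48 and that of mouse 3 in 72. The matching shares over all genes tested were not determined, so these 3 counts have no background. On the first principal component of the 18 samples (32.0% of the variance) the sample of mouse 1 lay at -138.8, against 31.6 for mouse 2 and 23.3 for mouse 3. All samples of mouse 1 were negative on it, the subclone 13 liver sample at -87.8, and all samples of mice 2 and 3 were positive. The component thus separated mouse 1 in both subclones and all 3 organs, not this sample alone. Without the sample of mouse 2, 386 genes were called, 190 of them among the 262, and all 30 genes with the largest changes kept their call.

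Subclone 2 from the livers of the retransplantation experiment gives further levels, scaled within its own table and so set beside the others only as values. Where these cells grew and where they were first taken from cannot both be read from the labels. SPARC had 341, 154 and 15 CPM in these libraries of mice 4, 5 and 6, of which only the last resembles the 11.3 to 32.5 CPM of subclone 2 in the first experiment. HLA-DPA1 (0.552, 1.03 and 0.811 CPM) and GYPC (0, 0.0608 and 0 CPM) were near the levels of subclone 2 there. NGFR had 16.5, 0.213 and 1.12 CPM, so the library of mouse 4 was far above the subclone 2 liver samples of the first experiment. PCDHB2 had 3.39, 3.56 and 3.31 CPM, above those samples in each library. PRSS2 had 0.382, 1.09 and 0.561 CPM and EPHB6 had 0.382, 0.334 and 0.156 CPM, below the subclone 13 liver samples in each library for both genes. For 9 of the 15 largest rises all 3 libraries lay below all 3 subclone 13 samples, and for 2 of the 14 largest falls with a value, DOCK3 among them, all 3 lay above them. These genes were chosen on the liver values of the first experiment, which favours such an order for rises and falls alike. The share over all genes tested was not determined, so the counts describe these genes only.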

How the data were processed

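RNA from sorted subclones was sequenced after TruSeq v2 library preparation, per the labels' protocols, a kit that does not keep the strand. STAR, featureCounts, cutadapt, GRCh38 and bcl2fastq 2.15.0.4 are named without roles or settings, per the submitters' processing notes. The values deposited by the authors were raw read counts per gene, in whole numbers, in 1 table per experiment (38526 and 36291 genes). No column was left out. Coordinates came from GENCODE v29, symbols from a list of gene names (38231 genes with one) and promoters from RefSeq.

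The 3 libraries of subclone 13 of mouse 1 in each organ were summed; in liver their biological coefficient of variation (BCV) was 0.115. Genes were kept with filterByExpr and counts scaled by TMM in edgeR 4.0.16 (R 4.3.3). All 18 samples were fitted with group and mouse as terms (10 residual degrees of freedom), with the quasi-likelihood F test, Benjamini-Hochberg adjustment and a threshold of 0.05. Standard errors were derived from the fold change and its F statistic. The scripts were tested on simulated counts. Same numbers mark the same mouse, per the labels, and mostly the same run. Deviations from group means correlated within mice, with a median of 0.36 and a lowest value of 0.15 over 45 pairs, and the mouse term lowered the BCV from 0.476 to 0.330. Separate cultures or grafts beyond the mice are not given.

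Named genes have a symbol, an adjusted p under 0.05, at least 5 CPM on average in the higher group and the same sign in all 3 pairs: the 15 largest changes each way, genes under 0.5 CPM in every sample of the lower group, and genes passing a test between organs. List members are named too. A few genes that the rule or the lists name are not reported here. Mouse pair differences and figures use log2(CPM + 0.5). Members, lists and rules were chosen with earlier results of these data known. Alternatives were fits without the mouse term or with 1 term per mouse and organ, DESeq2 1.42.0, RLE scaling, no filter, liver samples alone, leaving out samples or mice, and single libraries of mouse 1. Intervals of pooled counts cover counting error only.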

Additional observations from a re-analysis of the deposited data

Results flagged for a closer look

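The subclone difference of ACTG2 was larger in liver metastases than in primary tumours by 5.905 on the log2 scale, and the test of that difference passed over all genes (edgeR adjusted p = 0.00861). Its fitted log2 fold change was 7.73 in liver and 1.82 in tumours, with the same sign in the 3 mice of both organs. Its value ranged from 4.83 to 7.34 when samples or mice were left out. The share of this difference that comes from sequencing run, which mostly follows the mouse, was not tested.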

How the results depend on the processing

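With no replicate block (no mouse term) 43 genes were called in liver, 0 between liver and tumour, and 0 class II members, against 262, 1 and 7 with it. A block per mouse and organ gave 314 in liver (225 shared) and 0 between liver and tumour. DESeq2 called 772 in liver, 25 between liver and tumour and 21 between liver and lung, and no filter on low counts gave 667, 121 and 67. The 6 liver samples alone gave 39 genes with the mouse block and 3 without, and 0 class II members in both. Leaving out single samples or mice gave 31 to 386 genes in liver (85 without mouse 2 and 106 without the subclone 13 sample of mouse 2), 0 to 7 between liver and tumour, 0 to 2 between liver and lung, and 0 to 7 class II members. With RLE scaling 279 genes were called in liver (168 higher, 111 lower), and with library 1, 2 or 3 of mouse 1 in place of the sum 271, 264 and 274. Of the 30 genes with the largest changes, none changed sign in any alternative. The call was lost by 18 without the mouse term, 2 with a block per mouse and organ (WDR72 and DOCK3), 17 in the liver samples alone with the block, 27 there without it, 17 without mouse 2, 18 without mouse 3 and 7 without mouse 1, and by none with DESeq2, RLE scaling or no filter. SPARC, NGFR and PRSS2 kept it throughout. With genes of at least 5 CPM alone, the medians of the 5 named windows kept their sign and were at least 0.5 in size. The window of 60 to 70 Mb on chromosome 18 then held 10 genes, under the minimum of 15. Other windows were not screened again. Where the cause of a change is not the smaller number of samples or genes, the cause was not tested. Depth limits genes near 0 CPM, where 2 counts stand for subclone 13 in MAGEC2.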
